A study of Mus musculus with 3 samples.

Results

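The genes described here are the replication-dependent histone genes of the mouse, which sit in the Hist1, Hist2, Hist3 and Hist4 clusters. They were chosen by name and not by level: every protein-coding gene of GENCODE release M21 with a symbol beginning Hist1h, Hist2h, Hist3h or Hist4h whose transcript identifier was in the deposited table. This gave 56 genes of the 18130 coding genes with a value: 6 for the linker histone H1, 12 for H2A, 14 for H2B, 12 for H3 and 12 for H4. Release M21 names 67 such genes, and the 11 whose identifiers did not match were not analysed here. RNA came from mouse cortical neurons of wild-type genotype under the treatment label CON, with 3 libraries that form a single group, called replicates 1 to 3. The labels give total RNA as the molecule but no strain, age, sex or culture day, and no statement that the libraries came from separate cultures, so the spread between them may be partly technical. The series title places the libraries in a study of DNA supercoiling and topoisomerases in the neuronal genome.

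Canonical histones package newly copied DNA, and their genes are transcribed mainly in S phase. Their mRNAs are unusual among metazoan mRNAs in lacking a poly(A) tail: the pre-mRNA is cut just after a short stem-loop in the 3′ end, to which the stem-loop binding protein SLBP binds. Some of these genes can also be read past the stem-loop to a conventional poly(A) site, and such polyadenylated histone mRNAs have been described in differentiated cells. The genes have few or no introns and near-identical coding sequences, so that short reads from them are hard to place.

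The stem-loop is the sequence that defines the family's mRNA ends, and it is shown for the genes whose levels carry the results below. The word searched was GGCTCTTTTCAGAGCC, the most frequent 16-base word with a paired stem in the 150 bases of genome after the stop codons of these genes (GRCm38, coding strand), and up to 3 mismatches were allowed. Capitals mark the 16 bases of the stem-loop, and the 5 bases on either side are in lower case.
Hist1h2bc: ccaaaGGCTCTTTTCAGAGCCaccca
Hist3h2a: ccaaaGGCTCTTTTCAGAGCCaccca
Hist3h2ba: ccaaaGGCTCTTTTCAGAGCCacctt
Hist1h1c: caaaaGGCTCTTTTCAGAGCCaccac
Hist2h3c1: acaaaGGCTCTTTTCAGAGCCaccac
Hist2h2bb: caaaaGGCTCTTTTCAGAGCCacttt
Hist1h4i: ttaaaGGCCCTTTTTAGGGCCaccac
Hist2h4: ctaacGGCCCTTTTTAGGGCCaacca
Hist1h1b: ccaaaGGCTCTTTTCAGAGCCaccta
Hist1h4h: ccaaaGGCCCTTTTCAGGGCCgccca
Hist2h2ac: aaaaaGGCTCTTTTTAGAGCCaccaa

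Of the 56 genes, 52 (92.9%) held a match and 31 held it exactly, against 29 (0.160%) and 0 of the 18074 other coding genes. Because the word was picked as the most frequent in these same 56 genes, part of this contrast was fixed by that choice. The match began 21 to 55 bases after the stop codon, with a median of 30. In 51 of the 52 matches all 6 positions of the stem paired with their opposite base. No H4 gene had the exact sequence: 7 had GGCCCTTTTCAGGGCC, in which both strands of the stem differ so that pairing is kept, and Hist1h4i and Hist2h4 had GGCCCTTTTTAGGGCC. These were the only 2 H4 genes that reached 1 TPM. In H1, H2A, H2B and H3 genes, 8 had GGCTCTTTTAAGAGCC, and none of those 8 reached 1 TPM. Of all 56 genes only 9 reached 1 TPM, and a link between stem-loop sequence and level was not tested. The 4 genes without a match were Hist1h4j, Hist1h4b, Hist1h2bp and Hist2h2be. In Hist1h4j and Hist1h4b the nearest stretch was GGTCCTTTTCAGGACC, which has 4 mismatches, just past the limit. All 6 positions of its stem pair, and it began 29 and 33 bases after the stop codon. These genes thus lack a match by the mismatch limit, not for want of a paired stem.

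Most of these genes were at or near 0 in the cortical neuron libraries, and a few were not. Levels are in TPM, a relative abundance per transcript length, and the value of a gene is that of the coding transcript with the highest product of mean TPM and exonic length. A mean of 1 TPM or more was reached by 9 of the 56 genes (16.1%), against 61.8% of all 18130 coding genes. Another 11 lay between 0.1 and 1 TPM, 24 lay above 0 but under 0.1 TPM, and 12 were listed at 0 in each library, where the background share of coding genes is 5.53%. For those 12 genes a count of 0 allows up to 3 reads, or between 0.0690 and 0.182 TPM depending on length and library. The median gene of the family had 0.039 TPM, against 2.91 TPM for all coding genes. In a bulk sample, fewer cells that express a gene and less RNA per cell cannot be told apart.

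The deposited TPM values could be turned back into whole reads for all 56 genes, within 0.01 of a read. The family held 4882, 4310 and 3923 reads in replicates 1, 2 and 3, which was 0.0142% ± 0.0006 (SD, n = 3) of the reads on the coding transcripts used. The 4 highest genes, Hist1h2bc, Hist3h2a, Hist3h2ba and Hist1h1c, took 85.1% ± 0.68 of these reads. The 47 genes under 1 TPM together held 190, 188 and 125 reads. Summed TPM by class was 43.4 ± 3.53 for H2B, 16.9 ± 2.54 for H2A, 11.7 ± 1.28 for H1, 3.61 ± 0.59 for H4 and 3.16 ± 0.82 for H3. In each class 1 or 2 genes made up most of the sum.

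**Figure D1:**
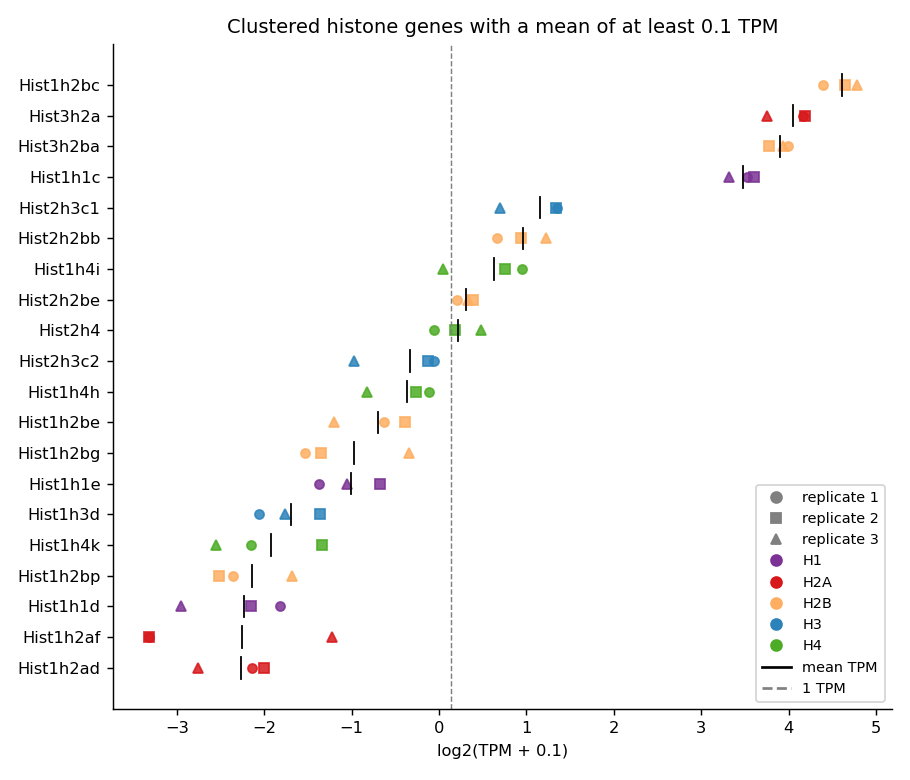
Level of the 20 clustered histone genes whose mean was 0.1 TPM or more, as log2(TPM + 0.1) on the x axis. Points are the 3 libraries (shape) coloured by histone class, black bars the mean TPM, and the dashed line 1 TPM. The 4 highest genes lie between 9.86 and 27.4 TPM in every library, and the next gene, Hist2h3c1, lies between 1.52 and 2.45 TPM.

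Linker histone H1 binds the DNA that enters and leaves the nucleosome. Among its 6 clustered genes Hist1h1c (chr13:23738808-23740367, + strand) was the highest, at 11.4, 12.03 and 9.86 TPM in replicates 1, 2 and 3, with 908, 811 and 703 reads. Hist1h1e, the next, had 0.29, 0.53 and 0.38 TPM. Every other clustered H1 gene was lower: Hist1h1d had a mean of 0.11 ± 0.08 TPM, Hist1h1b 0.050 ± 0.038 TPM, Hist1h1a 0.032 ± 0.031 TPM and the testis-specific gene Hist1h1t 0.011 ± 0.018 TPM (SD, n = 3). Hist1h1a, Hist1h1b and Hist1h1t held 3, 5 and 1 reads over the 3 libraries together.

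Reads of the H1 genes are easier to place than those of the core histones: the median share of 50-base words that occur at most once in the genome was 95.7% over the H1 genes, and 32.4% to 60.1% over the other classes. All such words of Hist1h1a, Hist1h1b and Hist1h1t were unique, as were 91.5% of those of Hist1h1c and 77.8% of those of Hist1h1e. On the log2(TPM + 0.1) scale the difference from Hist1h1c inside a library was −4.51 ± 0.33 for Hist1h1e, −5.79 ± 0.47 for Hist1h1d, −6.25 ± 0.27 for Hist1h1b and −6.42 ± 0.25 for Hist1h1a (SD, n = 3 libraries, exact two-sided sign-flip permutation p = 0.25 for each). The differences had the same direction in 3 of 3 libraries, and 0.25 is the smallest p that 3 libraries allow. After adjustment over the 8 gene pairs tested these p-values were 0.286, so no pair could reach 0.05.

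Because the added 0.1 TPM compresses differences of genes near 0, the pooled reads per base were compared as well. Hist1h1c had 332 times the read density of Hist1h1a (95% exact interval 114 to 1612) and 231 times that of Hist1h1b (98.7 to 711). For Hist1h1d the ratio was 96.3 (55.0 to 187). These intervals cover counting error only. In TPM, Hist1h1c stood at 29.5 ± 8.89 times Hist1h1e.

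H1f0, the linker histone gene of differentiated cells, lies outside the clusters and makes a polyadenylated mRNA. It stood above Hist1h1c in 3 of 3 libraries, at 2.53 ± 0.38 times its TPM, a log2(TPM + 0.1) difference of 1.32 ± 0.21 (n = 3, exact two-sided sign-flip permutation p = 0.25, adjusted 0.286). Its values were 28.1, 26.1 and 28.9 TPM, and they did not overlap those of Hist1h1c.

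H2A pairs with H2B at the faces of the nucleosome, and among 12 clustered H2A genes a single gene reached 1 TPM. Hist3h2a (chr11:58954685-58956830, + strand) had 17.8, 18.1 and 13.4 TPM with 1957, 1677 and 1315 reads, the largest read number in the family. No other H2A gene passed 0.11 TPM in its mean. Hist1h2af and Hist1h2ad came next with means of 0.11 TPM each, and all 6 reads of Hist1h2af were in replicate 3. In the Hist2 cluster Hist2h2ab had 1, 1 and 3 reads, a mean of 0.081 TPM, and Hist2h2ac was listed at 0 in each library. The other 3 H2A genes listed at 0 in each library, Hist1h2ae, Hist1h2ak and Hist1h2an, belong to Hist1.

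H2B was the class with the most genes at or above 1 TPM, 4 of 14. Hist1h2bc (chr13:23684199-23692488, + strand) was the highest gene of the whole family, at 20.9, 24.9 and 27.4 TPM with 789, 793 and 922 reads. Hist3h2ba, the H2B gene of the small Hist3 cluster (chr11:58948920-58949533, + strand), had 15.9, 13.6 and 15.2 TPM. Both Hist3 genes were thus among the 3 highest of the family.

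From the Hist2 cluster, Hist2h2bb had 1.49, 1.82 and 2.24 TPM on 29, 30 and 39 reads. Hist2h2bb shares 226 bases with the lincRNA gene Gm42743 on the same strand, which had 99, 101 and 69 reads, so its value is uncertain. Hist2h2be had 1.05, 1.21 and 1.16 TPM on 141, 137 and 139 reads, and its spread (SD 0.08) was no larger than that from counting alone (0.10). Hist2h2be minus Hist1h2bc was −4.30 ± 0.13 on the log2(TPM + 0.1) scale, negative in 3 of 3 libraries (exact two-sided sign-flip permutation p = 0.25, adjusted 0.286). Of the other H2B genes, Hist1h2be (0.51 TPM), Hist1h2bg (0.41 TPM) and Hist1h2bp (0.13 TPM) lay between 0.1 and 1 TPM, and 2 were listed at 0.

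H3 and H4 form the core tetramer of the nucleosome, and their clustered genes were low in these libraries. Among 12 H3 genes, Hist2h3c1 (chr3:96246685-96248504, + strand) alone passed 1 TPM, with 2.45, 2.43 and 1.52 TPM on 229, 191 and 126 reads. All 1820 bases of Hist2h3c1 lie inside the noncoding transcript Gm20634 on the same strand, which had the same 229, 191 and 126 reads. Gm20634 has 2956 exonic bases, and those outside Hist2h3c1 added no reads in any library. The reads in the shared bases cannot be divided between the 2 genes, so the level of Hist2h3c1 is uncertain. Its neighbour Hist2h3c2 had 0.86, 0.82 and 0.41 TPM, and the third Hist2 gene, Hist2h3b, was listed at 0. In both Hist2h3c1 and Hist2h3c2, replicate 3 was the lowest library. Of the 9 H3 genes of Hist1, Hist1h3d was the highest at 0.21 TPM and 4 were listed at 0.

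Of the 12 H4 genes, Hist1h4i (chr13:22040636-22041362, − strand) had 1.82, 1.59 and 0.93 TPM and Hist2h4 (chr3:96261682-96263311, − strand) had 0.86, 1.04 and 1.29 TPM. Their order was not the same in every library: Hist1h4i was above Hist2h4 in replicates 1 and 2 and below it in replicate 3. Hist1h4h followed at 0.67 ± 0.19 TPM. Hist4h4, the single gene of the Hist4 cluster on chromosome 6, had 0, 1 and 1 reads over 2879 exonic bases, a mean of 0.005 TPM, with 82.7% unique words. All H4 genes encode the same protein as each other or nearly so, so these levels concern the genes and not different proteins.

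Across the 9 highest genes, 3 of the 8 neighbouring steps in the order were clear of the replicate spread. Hist1h2bc was above Hist3h2a in every library with no overlap (0.57 ± 0.41 on the log2 scale), Hist3h2ba above Hist1h1c (0.42 ± 0.23) and Hist1h1c above Hist2h3c1 (2.35 ± 0.24). Hist3h2a and Hist3h2ba overlapped: Hist3h2ba minus Hist3h2a was −0.13 ± 0.30, with replicate 3 in the opposite direction to replicates 1 and 2 (exact two-sided sign-flip permutation p = 0.75, adjusted 0.75, n = 3). Without replicate 2 the mean of this difference changed sign, to 0.0081. The 4 steps from Hist2h3c1 down to Hist2h4 overlapped as well. With replicate 3 left out, 8 and not 9 genes reached 1 TPM.

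The 9 genes were spread unevenly over the clusters. In Hist1, 3 of 45 genes reached 1 TPM, 1 of 17 in its proximal block on chromosome 13 and 2 of 28 in its distal block. In Hist2, on chromosome 3, 4 of 8 genes did, and in Hist3, on chromosome 11, both genes did. The median level was 0.035 TPM in Hist1 and 0.88 TPM in Hist2. These are descriptions of clusters of very unequal size, and no test was made of the difference.

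Of the 9 genes at or above 1 TPM, 7 had an annotated 3′ end that runs on well past the stem-loop. A replication-dependent mRNA ends within a few bases of the stem-loop, so an annotated transcript that runs further describes another kind of 3′ end. The deposited transcript ran at least 100 bases past the stem-loop in 13 genes, and 7 of these reached 1 TPM, with a median of 1.06 TPM. In 39 genes it ended sooner, and 1 of these, Hist2h2bb, reached 1 TPM, with a median of 0.032 TPM for the 39. Among the 4 genes without a stem-loop match within 3 mismatches Hist2h2be alone reached 1 TPM. The counts depend on the annotation. With the transcript ends of release M21 in place of the deposited ones, 22 genes ran at least 100 bases past the stem-loop, and 7 of them reached 1 TPM, with a median of 0.30 TPM for the 22. This alternative was chosen after seeing the data. The 9 genes that M21 adds all stood under 1 TPM, among them Hist1h1d with 4884 bases, Hist1h2ac with 2010 and Hist1h1e with 1153. The 100-base limit was chosen after the values were seen, and a gene's model in the annotation may itself rest on RNA seen in other samples.

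The distance past the stem-loop was 313 exonic bases in Hist1h2bc, 1643 in Hist3h2a, 169 in Hist3h2ba and 840 in Hist1h1c. It was 1162 in Hist2h3c1, 330 in Hist1h4i and 1257 in Hist2h4. A long annotated end did not by itself go with a high level. Hist4h4 ran 2445 bases past its stem-loop at 0.005 TPM, Hist1h3f 365 bases at 0 TPM and Hist1h3e 369 bases at 0.017 TPM. Just under 1 TPM, Hist2h3c2 ran 377 bases and Hist1h2be 1788 bases past theirs.

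The canonical poly(A) signal AATAAA, searched on the coding strand, lay in the last 50 bases of the deposited transcript in 11 genes. Of these 11, 7 reached 1 TPM: Hist1h2bc, Hist3h2a, Hist3h2ba, Hist1h1c, Hist2h3c1, Hist2h2be and Hist2h4. Of the 45 genes without it 2 did, Hist2h2bb and Hist1h4i. Among the other coding genes 62.5% had the signal in the last 50 bases. That share was taken from M21 transcripts and not from the deposited ends, so the 2 are not strictly alike. A match of 6 letters is a description of the sequence, not of a site in use.

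**Figure D2:**
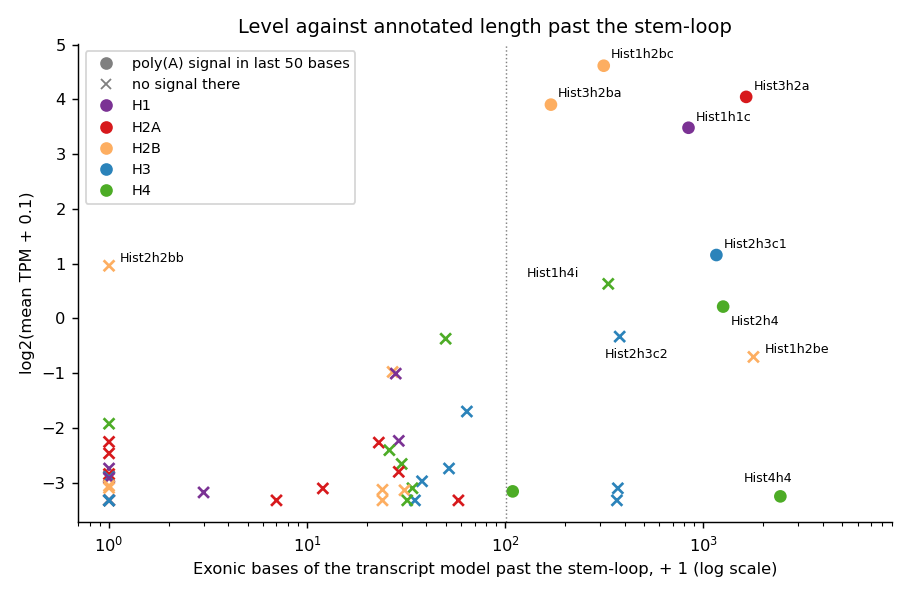
Mean level, as log2(mean TPM + 0.1), against the exonic bases of each gene's transcript past its stem-loop, plus 1, on a log scale, for the 52 genes with a stem-loop match. Colours are histone classes, filled circles have a poly(A) signal in the last 50 bases and crosses do not, and the dotted line stands at 100 bases. Of the 13 genes to the right of the line 7 reached 1 TPM, against 1 of the 39 to its left, and Hist4h4 at 2445 bases stood at 0.005 TPM.

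The position of reads inside a gene was not in the deposited values, but an overlapping transcript allowed a partial answer for Hist3h2a. The long transcript of Trim17, which encodes a ubiquitin ligase, has a first exon of 708 bases that covers the start of Hist3h2a on the same strand and ends at position 58955392 of chromosome 11, past the Hist3h2a stem-loop, whose last base is 58955187. Reads were counted once for each overlapping transcript, as seen at Hist2h3c1, where 2 models and the overlapping transcript Gm20634 all had 229, 191 and 126 reads. Even if every read of the long Trim17 transcript (1238, 974 and 903) lay in the shared stretch, at least 719, 703 and 412 reads of Hist3h2a lay in its remaining 1438 bases, all of them past the stem-loop. That was at least 36.7%, 41.9% and 31.3% of the reads of the gene. The read density there was at least 54.8%, 62.6% and 46.8% of that over the whole gene, which was 91.2, 78.1 and 61.3 reads per 100 bases. RNA from the stretch past the stem-loop of Hist3h2a was therefore present in each library. That stretch is also an intron of Trim17, so unspliced Trim17 RNA cannot be told apart from Hist3h2a RNA there.

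Hist1h2be and Hist1h2bp, both under 1 TPM, had 2 exons. Among the genes at or above 1 TPM, Hist1h2bc alone had 2. Its deposited transcript has a first exon of 423 bases that stops 9 bases after the stop codon and 25 bases before the stem-loop, an intron of 7554 bases, and a second exon of 313 bases. The spliced transcript as annotated therefore leaves the stem-loop out. How its 789, 793 and 922 reads divide between the 2 exons cannot be read from the values.

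Reads that fit several genes could change all of these levels, because how the counting treated them is not given in the sources used here. Uniqueness was therefore measured as the share of a transcript's 50-base words that occur at most once in the genome, and its median over the 56 genes was 46.5%. Words across a splice junction, which the genome does not hold in 1 piece, counted as unique. Of the 9 genes with under 20% unique words, 4 were listed at 0 and none reached 1 TPM. Of the 39 genes from 20% to 90%, 8 were listed at 0 and 4 reached 1 TPM, and of the 8 genes with at least 90%, none was at 0 and 5 reached 1 TPM. Over all coding genes, 10173 of 16078 with at least 90% unique words reached 1 TPM, so 5 of 8 is close to the background share. Of 149 coding genes with under 20%, 44 reached 1 TPM and 37 were at 0 in each library. Level and uniqueness moved together across the family, and the part of uniqueness in the low levels was not tested beyond the values that follow.

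The 5 genes at or above 1 TPM with at least 90% unique words were Hist3h2a (98.0%), Hist1h1c (91.5%), Hist2h2bb (100%), Hist2h2be (99.2%) and Hist2h4 (99.0%). Among the low genes Hist1h1a, Hist1h1b and Hist1h1t had 100% unique words and still stood under 0.1 TPM. Dividing each level by its unique share, a correction that assumes all other reads were lost, raised the number of genes at or above 1 TPM to 12, adding Hist2h3c2 (1.91 TPM), Hist1h4h (1.24 TPM) and Hist1h2bg (1.21 TPM).

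In each of the 7 genes with a long annotated end and at least 1 TPM, the share of unique words was higher past the stem-loop than up to it. In Hist1h2bc 13.4% of words were unique up to the stem-loop and 100% past it, and in Hist2h3c1 0% and 98.0%. Words that start before that boundary and reach over it counted as past it. In Hist1h2bc these are the words across its splice junction. The corresponding shares were 43.7% and 100% in Hist1h4i, 65.9% and 100% in Hist3h2ba, and 80.8% and 100% in Hist1h1c. The shares were nearly alike in Hist3h2a (90.7% and 100%) and Hist2h4 (95.1% and 100%). In these 7 genes the long annotated end thus added sequence to which a read could be assigned. Annotated length and uniqueness cannot be told apart there as companions of level. The other genes with a long annotated end, all under 1 TPM, were not divided in this way. Over their whole transcripts the unique share ran from 25.2% in Hist1h3f to 88.3% in Hist1h2be.

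**Figure D3:**
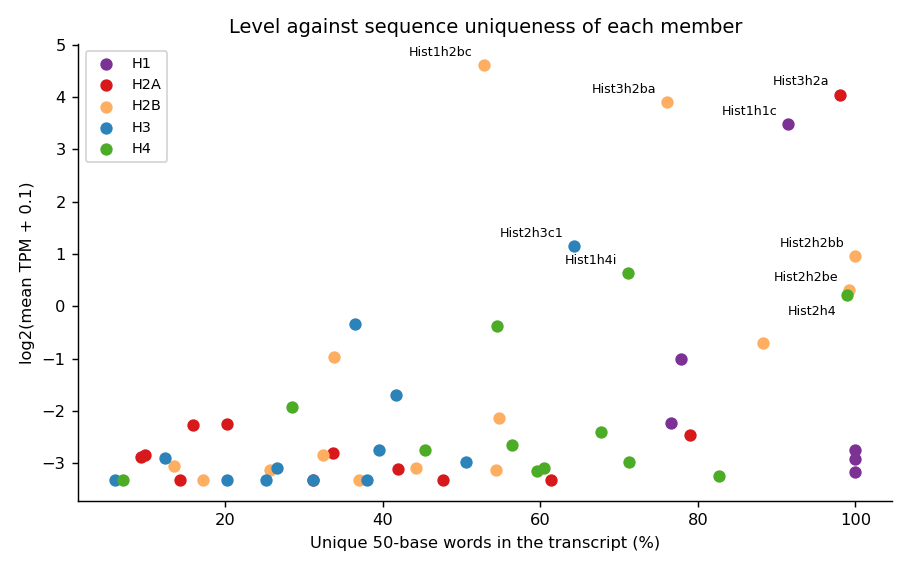
Mean level, as log2(mean TPM + 0.1), against the percentage of each gene's 50-base words that occur at most once in the genome, for all 56 genes coloured by histone class. The 9 genes at or above 1 TPM are named and lie at 52.8% unique or more, while Hist1h1a, Hist1h1b and Hist1h1t lie at 100% and under 0.1 TPM.

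H2A and H2B genes often stand head to head and share the DNA between their start sites. In the annotation 7 pairs of the family start within 1000 bases of each other on opposite strands, 238 to 301 bases apart. In 2 of the 7 pairs 1 gene reached 1 TPM, and in both it was the H2B gene. Hist1h2bc, at 24.4 TPM, starts 274 bases from Hist1h2ac, which had 2, 1 and 0 reads and a mean of 0.044 TPM. Hist2h2be, at 1.14 TPM, starts 238 bases from Hist2h2ac, which was listed at 0 in each library.

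Hist1h2ac minus Hist1h2bc was −7.45 ± 0.63 on the log2(TPM + 0.1) scale, and the pooled read density of Hist1h2bc was 540 times that of Hist1h2ac (95% exact interval 185 to 2619). Hist2h2ac minus Hist2h2be was −3.63 ± 0.10 on that scale, negative in 3 of 3 libraries (exact two-sided sign-flip permutation p = 0.25, adjusted 0.286). Against the 3 reads that a count of 0 allows per library, Hist2h2be was at least 9.33, 9.06 and 9.20 times higher. Hist1h2ac had 33.7% unique words and Hist2h2ac 61.4%, and the part of read placement in these low values was not tested. The only other pair with a gene above 0.2 TPM was Hist1h2ae, listed at 0, beside Hist1h2bg at 0.41 TPM. In the pair Hist1h2an and Hist1h2bp the H2B gene had 0.13 TPM and the H2A gene 0, and in the remaining 3 pairs both genes stood under 0.1 TPM.

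**Figure D4:**
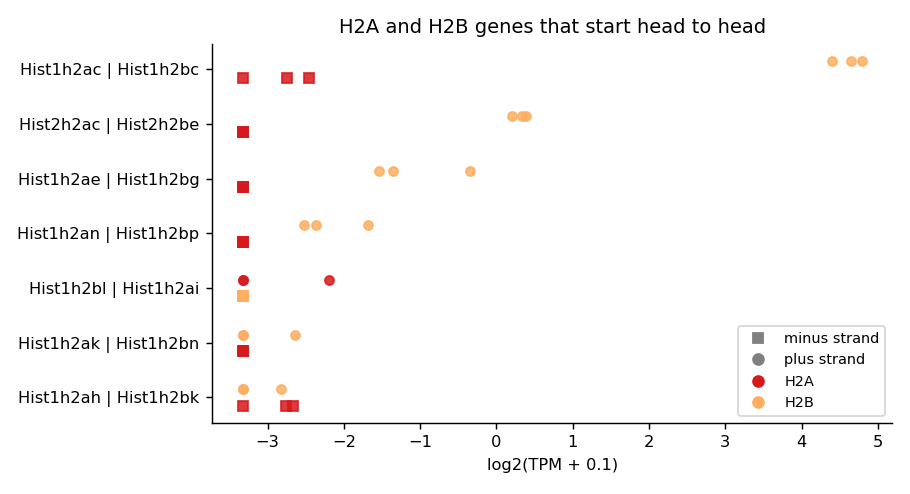
Level in each of the 3 libraries, as log2(TPM + 0.1), of the 7 pairs of H2A and H2B genes that start head to head within 1000 bases. Squares are the gene on the minus strand, circles the gene on the plus strand, and colours the class. In the upper pairs the H2B gene Hist1h2bc lies between 20.9 and 27.4 TPM and Hist2h2be between 1.05 and 1.21 TPM, while their H2A partners lie at or under 0.082 TPM.

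The DNA shared by the 2 pairs with an expressed gene is shown because a single stretch lies upstream of both a high and a low gene. Beside it stand the upstream stretch of Hist3h2a, the highest H2A gene, and those of a high and a low H1 gene. Each is the 250 bases before a RefSeq start (GRCm38.p6), read on the strand of the named gene. Capitals mark TATAA on the coding strand, and CCAAT, ATTTGCAT (the octamer) and AAACACA (the H1 box) on either strand. On the other strand CCAAT appears as ATTGG and the octamer as ATGCAAAT. TATAA on the other strand, which is that of Hist1h2bc and Hist2h2be in the shared stretches, was not marked. The Hist1h2ac stretch does hold it ahead of the Hist1h2bc start, as ttata in lower case. A lack of capitals therefore does not mean that Hist1h2bc lacks TATAA.
Hist1h2ac, chr13:23683960-23684209, − strand: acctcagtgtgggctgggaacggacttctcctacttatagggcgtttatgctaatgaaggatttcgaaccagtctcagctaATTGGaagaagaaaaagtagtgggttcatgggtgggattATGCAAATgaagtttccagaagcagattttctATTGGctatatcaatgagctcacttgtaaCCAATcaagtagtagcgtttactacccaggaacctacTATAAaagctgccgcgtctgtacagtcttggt
Hist2h2ac, chr3:96220881-96221130, − strand: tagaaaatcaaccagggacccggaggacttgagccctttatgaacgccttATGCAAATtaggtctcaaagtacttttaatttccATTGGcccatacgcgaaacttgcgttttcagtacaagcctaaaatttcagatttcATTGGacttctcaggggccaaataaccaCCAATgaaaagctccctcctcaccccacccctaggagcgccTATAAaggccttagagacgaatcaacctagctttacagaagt
Hist3h2a, chr11:58954435-58954684, + strand: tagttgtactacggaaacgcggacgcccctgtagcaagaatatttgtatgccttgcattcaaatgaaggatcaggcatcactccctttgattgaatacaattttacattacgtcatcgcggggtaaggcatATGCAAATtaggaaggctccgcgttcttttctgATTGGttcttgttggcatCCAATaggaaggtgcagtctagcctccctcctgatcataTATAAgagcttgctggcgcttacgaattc
Hist1h1c, chr13:23738557-23738806, + strand: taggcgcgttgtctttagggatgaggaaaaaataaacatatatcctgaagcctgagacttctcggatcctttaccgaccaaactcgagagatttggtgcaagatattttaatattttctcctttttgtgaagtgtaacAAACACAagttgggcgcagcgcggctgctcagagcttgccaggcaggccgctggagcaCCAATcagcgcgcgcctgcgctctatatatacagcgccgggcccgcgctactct
Hist1h1b, chr13:21780626-21780875, − strand: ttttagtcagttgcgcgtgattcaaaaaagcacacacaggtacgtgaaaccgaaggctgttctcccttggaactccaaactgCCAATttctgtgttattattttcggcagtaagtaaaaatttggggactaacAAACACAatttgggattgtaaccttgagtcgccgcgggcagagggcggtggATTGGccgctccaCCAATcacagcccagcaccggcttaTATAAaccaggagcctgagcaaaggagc

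The RefSeq table of 300-base promoters, 250 bases before to 50 after each start, held 50 promoters of 49 of the 56 genes. TATAA was present in 35 of these 50, against 17.5% of all 32851 promoters in the table. CCAAT was present in 42 of 50 against 37.4%, the octamer in 11 of 50 against 1.74%, and the H1 box in 6 of 50 against 7.18%. The octamer occurred in 6 of 12 H2A promoters and 5 of 11 H2B promoters and in no H1, H3 or H4 promoter. CCAAT was present in all H1, H2A, H2B and H3 promoters and in 3 of 11 H4 promoters, and the H1 box in 5 of 6 H1 promoters.

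High and low genes both carried these motifs, but promoters of only 6 of the 9 genes at or above 1 TPM could be compared, without Hist1h2bc, Hist2h2be and Hist2h4. Of these 6 promoters, 4 had TATAA, 5 had CCAAT and 2 had the octamer. Of 44 promoters of lower genes, 31 had TATAA, 37 had CCAAT and 9 had the octamer. Hist1h1c, at 11.1 TPM, and Hist1h1b, at 0.050 TPM, both had CCAAT and the H1 box. The exact letters TATAA were in the window of Hist1h1b and not in that of Hist1h1c. The Hist1h1c window does hold the stretch tatatata, which was not among the words searched. A match is only a description of the letters in these windows.

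Several groups of genes bear on how the family's levels are read, and each is given by its counts. Genes for transcription and 3′ end processing of histone mRNA were expressed: 18 of 19 reached 1 TPM, against 61.8% of all coding genes. Their median was 9.34 TPM. The highest were Cstf2, a cleavage factor shared with polyadenylated mRNA, at 26.6 ± 1.63 TPM, Srrt at 21.4 ± 1.83 TPM and the cap-binding protein gene Ncbp2 at 21.2 ± 0.64 TPM. Slbp itself had 9.34 ± 0.38 TPM, and Lsm11, a part of the U7 particle that directs the cut, 18.8 ± 2.70 TPM. Zfp473, whose product also acts with U7, was the lowest at 0.047 ± 0.008 TPM.

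The histone genes listed as replication-independent variants all reached 1 TPM (11 of 11, median 10.3 TPM), against 61.8% of all coding genes. H3f3b led at 65.3 ± 1.04 TPM, followed by H1f0 at 27.7 ± 1.42 TPM and the macro-H2A gene H2afy at 23.9 ± 2.07 TPM, and Cenpa, the centromeric H3, was lowest at 2.14 ± 0.35 TPM. H3f3b was at 32.2 ± 9.65 times the level of Hist2h3c1, the highest clustered H3 gene, and H3f3a at 3.86 ± 0.53 times, with the level of Hist2h3c1 uncertain as above. In the H2A class the order was the other way for H2afz, which stood at 0.24 ± 0.02 times Hist3h2a, though only 25.5% of the words of H2afz were unique. Among histone chaperones 11 of 12 reached 1 TPM (background 61.8%), with a median of 22.9 TPM. Rbbp7 (69.4 ± 1.77 TPM), Nap1l1 (45.0 ± 4.75 TPM) and Nap1l4 (43.7 ± 1.28 TPM) were the highest, and Asf1b, the chaperone of dividing cells, was lowest at 0.46 ± 0.07 TPM.

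Genes of dividing cells were present at low levels beside the clustered histones. Of 22 S phase genes 16 reached 1 TPM, against 61.8% of all coding genes, with a median of 1.55 TPM. They ran from Pcna (8.36 ± 1.20 TPM), Rrm1 (6.35 ± 0.24 TPM) and Rrm2 (4.11 ± 0.63 TPM) down to Cdc6 at 0.23 ± 0.05 TPM. Of 8 markers of cycling cells 5 reached 1 TPM, with a median of 1.43 TPM. That count is close to the background share of 61.8%, so it does not set these markers apart from coding genes at large. Top2a (4.13 ± 0.52 TPM), Ccna2 (3.53 ± 0.35 TPM) and Mki67 (1.80 ± 0.38 TPM) led, and Ccnb1 was lowest at 0.61 ± 0.17 TPM. Hist1h1a, Hist1h1b and Hist1h1t, whose sequence is wholly unique, stood under the lowest gene of either list.

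**Figure D5:**
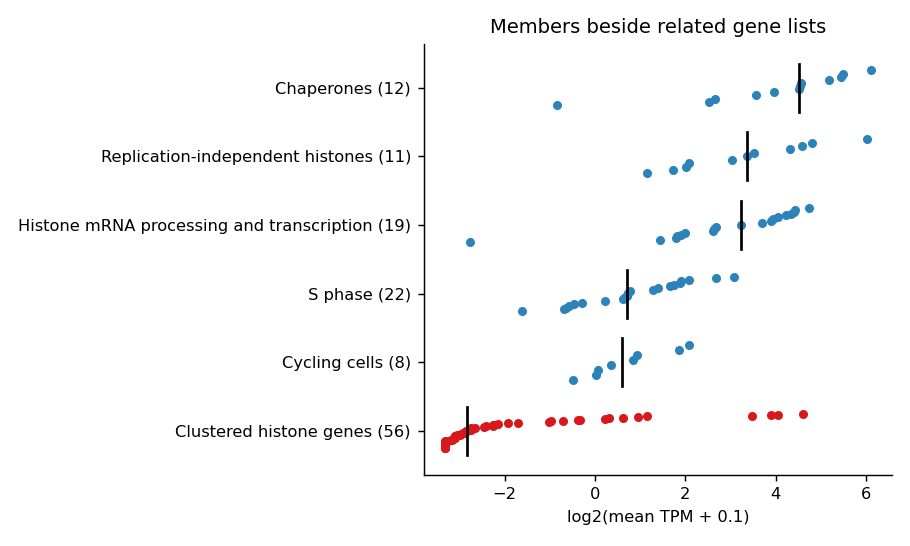
Mean level of each gene, as log2(mean TPM + 0.1), in the 56 clustered histone genes and in 5 related lists, with the number of genes in brackets and a black bar at the median of each list. The median is 0.039 TPM for the clustered genes, 1.43 and 1.55 TPM for cycling and S phase genes, and 9.34 to 22.9 TPM for the 3 upper lists.

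Whether the libraries were made from poly(A)-selected or rRNA-depleted RNA is not stated in the labels, which matters for mRNAs without a poly(A) tail. Known RNAs without such a tail gave the following values. Of 7 such genes with a value, Rn7sk alone reached 1 TPM, at 4.25 ± 0.38 TPM on 79, 56 and 63 reads. Rpph1 had 0.78 ± 0.19 TPM, Rny1 0.069 ± 0.119 TPM, and Terc and Rn7s2 were listed at 0. Uniqueness was not measured for these genes, so the placing of their reads is uncertain. The part of RNA selection in the low histone levels was not tested.

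The label of the tissue was checked against markers. All 8 pan-neuronal markers reached 1 TPM (background 61.8%), with a median of 233 TPM and a summed level of 2052 to 2341 TPM. All 7 astrocyte markers did too, with a summed level of 421 to 514 TPM, as did 6 of 7 oligodendrocyte-lineage markers (49.7 to 82.2 TPM), 3 of 5 pericyte and fibroblast markers (6.79 to 7.19 TPM), 1 of 6 microglial markers (1.20 to 2.27 TPM) and 0 of 4 endothelial markers (0.56 to 0.82 TPM). Tmem119 and Cldn5 were listed at 0. The libraries therefore held RNA of glia beside that of neurons, and the cells from which the histone RNA came cannot be told apart in bulk RNA.

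The 9 genes at or above 1 TPM did not follow 1 library. Replicates 1, 2 and 3 were the highest library for 3 genes each, where the background shares are 28.2%, 40.4% and 31.4% of expressed coding genes, and replicate 3 was the lowest for 4 of them, where the background share is 40.9%. Hist1h2bc, Hist2h2bb and Hist2h4 were highest in replicate 3, and Hist3h2a, Hist1h1c, Hist2h3c1 and Hist1h4i lowest there. Cell type markers also moved with replicate 3: it was the lowest library for 8 of 8 pan-neuronal markers (background 40.9%) and the highest for 5 of 7 astrocyte markers (background 31.4%), and the part of this in the histone differences was not tested. Cycling markers and S phase genes went another way: replicate 2 was the lowest library for 8 of 8 and 19 of 22 of them, where the background share is 25.4%. Their summed levels were 15.5, 12.7 and 16.3 TPM for cycling markers and 53.2, 45.2 and 53.7 TPM for S phase genes in replicates 1, 2 and 3. The summed level of the clustered histones was 77.9, 81.7 and 76.7 TPM, highest in replicate 2. As a share of coding reads the family stood at 0.01457%, 0.01455% and 0.01348%, so that by reads replicate 2 was not the highest. No test was made of these orders.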

How the data were processed

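The data are 3 libraries of total RNA from wild-type cortical neurons of the mouse. The submitters' processing notes name STAR 2.5.3a, Subread 1.4.6 with featureCounts, FastQC 0.11.2 and the build mm10. The authors deposited TPM values for 84660 transcripts. Strand and multi-mapping settings are not given in the sources used here.

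Identifiers were matched without version to GENCODE M21 (GRCm38), and 1643 did not match. The transcripts deposited for Hist1h2bq and Hist1h2br lie at the places of other H2B genes in M21. In each library, multiplying TPM by exonic length gave whole multiples of a single constant for 98.0% of 77590 values above 0 (tolerance 0.01 read), which gave 33514284, 29618759 and 29111857 reads on the coding transcripts used. Members, lists and tests were chosen with earlier results of these data known. Genes named are those at or above 1 TPM, all H1, Hist2, Hist3 and Hist4 members, divergent pairs with such a gene, the pairs tested, and the 3 highest and the lowest of each list; others were named after their values were seen. Differences are log2(TPM + 0.1) within libraries, tested by exact two-sided sign-flip permutation. Uniqueness used 50-base words on both strands. On simulated libraries of 18130 genes 100% of reads were recovered and a planted difference of 2.00 came out as 1.99. Alternatives were other pseudocounts, transcript choices, minimums, rescaling, uniqueness filters and leaving out each replicate. Python 3.11.15, numpy 2.4.6, pandas 2.3.3, scipy 1.17.1, numba 0.67.0 and matplotlib 3.10.9 were used.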

Additional observations from a re-analysis of the deposited data

How the results depend on the processing

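No paired analysis was possible because the series holds 1 group. The 7 larger pair differences kept their direction under each pseudocount, transcript choice, rescaling and left-out replicate. Hist3h2ba minus Hist3h2a ranged from −0.29 to 0.0081 with 1 replicate left out, the latter without replicate 2. The number of genes at or above 1 TPM was 9. It was 5 at a minimum of 2 TPM, 14 after rescaling TPM to nuclear coding genes, 5 among genes with at least 90% unique words, 12 at a minimum of 0.5 TPM, and 8 to 9 with 1 replicate left out. Among all coding genes with at least 90% unique words, 10173 of 16078 reached 1 TPM. The share of all coding genes at the other minimums and after rescaling is not given here, so those counts have no background. Rescaling raised every level, Hist1h2bc to 113.7 TPM. The sum over both models of Hist2h3c1 was 4.26 TPM, since they share reads. Class medians on the log2 scale followed the pseudocount. For H1, H2A, H2B, H3 and H4 they were −2.48, −3.13, −2.47, −3.32 and −2.96 with 0.1. They were 0.12, 0.023, 0.12, 0.0 and 0.045 with 1, and −3.61, −5.79, −3.77, −6.64 and −5.03 with 0.01. After rescaling they were −1.18 for H1, −2.76 for H2A, −1.24 for H2B and −2.26 for H4. Among genes with at least 90% unique words they were 4.03 for H2A, 0.63 for H2B and 0.20 for H4. Among genes at or above 1 TPM they were 3.48, 4.03, 2.42, 1.13 and 0.39. For H2B the median was −2.30 with summed transcripts and −1.78 without Hist1h2bq and Hist1h2br, an alternative chosen after seeing the data. Depth limits genes at 0: 3 reads of a short gene amount to up to 0.182 TPM.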

Other observations

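A histone pseudogene stood above most coding members of the family. Hist1h2al, annotated as a processed pseudogene on chromosome 13 away from the Hist1 cluster (chr13:51202688-51203065), had 43, 23 and 65 reads, or 2.22, 1.41 and 3.76 TPM. That was more than any clustered H2A gene other than Hist3h2a. Hist3h2bb-ps, a pseudogene between the Hist3 genes, had 10, 11 and 14 reads, or 0.42, 0.55 and 0.66 TPM, and it lies next to the start of Hist3h2a. Gm11398, a transcribed pseudogene that shares 134 bases with Hist1h2be on the same strand, had 19, 27 and 17 reads, or a mean of 1.42 TPM. Uniqueness was not measured for these pseudogenes, so the placing of their reads, and their rank beside coding genes, is uncertain. The values were seen first and chosen afterwards.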
